A study of Homo sapiens with 6 samples.

Results

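The genes described here are 9 inflammatory genes driven by the transcription factor NF-kB, read by 10 probes of the 47231 on each array. The probes were chosen by identifier, and the platform annotation pairs each with its listed gene. CXCL8, also called IL8, has 2 probes, and IL6, CXCL1, CXCL2, CCL2, CCL20, IL1B, NFKBIA and TNFAIP3 have 1 each. No other probe of the table is annotated to these genes. The arrays were one-colour Illumina Human-HT12 BeadChips, whose probes sit on beads and capture labelled copies of the sample's RNA. They held total RNA of SK-Hep1, an adherent human cell line labelled as hepatocellular carcinoma, in 2 groups of 3 samples. The siLuc samples carried a control siRNA and the siTARDBP samples an siRNA against TARDBP, which encodes TDP-43, an RNA-binding protein that takes part in splicing and RNA stability. All 6 samples are thus siRNA-treated SK-Hep1 cells, and the labels used here give no siRNA sequence, dose, time after transfection or stimulus. Nothing in the labels states that the 3 replicates were grown as separate cultures, and the p-values therefore cover the spread among these samples, which may be technical.

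NF-kB proteins are held in the cytoplasm by inhibitors of the IkB family. Signals from receptors for tumour necrosis factor, interleukin-1 or microbial products lead to the destruction of the inhibitor, and NF-kB then enters the nucleus and switches on cytokine and chemokine genes. Among the genes it switches on are its own inhibitors, NFKBIA and TNFAIP3, which end the response. Many carcinoma lines make CXCL8, IL6 and related factors without added stimulus, and their mRNAs are short-lived because proteins that bind AU-rich elements promote their decay.

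The stretches of DNA just before the transcription starts are printed here for 5 of the genes because they carry the sequence that NF-kB recognises, or, for IL1B, show a window without it. They come from RefSeq (GRCh38.p14), run 5′ to 3′ along the gene's strand and hold the 250 bases before the annotated start. Capitals mark matches to the NF-kB motif, searched on both strands, or to GGAATTTCC, a 9-letter core that was added after the CXCL8 window had shown no match to the full motif.
IL6, chr7:22726950-22727199, plus strand: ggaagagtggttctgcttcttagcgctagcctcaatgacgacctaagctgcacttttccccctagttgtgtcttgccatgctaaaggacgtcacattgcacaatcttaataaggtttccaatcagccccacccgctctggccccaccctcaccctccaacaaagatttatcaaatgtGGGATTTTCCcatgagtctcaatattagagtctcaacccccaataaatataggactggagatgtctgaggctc
CXCL8, chr4:73740319-73740568, plus strand: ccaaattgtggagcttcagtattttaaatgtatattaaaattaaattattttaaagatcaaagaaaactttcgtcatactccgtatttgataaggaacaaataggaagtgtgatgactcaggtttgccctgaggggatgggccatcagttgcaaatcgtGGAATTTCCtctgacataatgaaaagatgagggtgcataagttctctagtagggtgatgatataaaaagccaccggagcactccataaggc
CXCL1, chr4:73869143-73869392, plus strand: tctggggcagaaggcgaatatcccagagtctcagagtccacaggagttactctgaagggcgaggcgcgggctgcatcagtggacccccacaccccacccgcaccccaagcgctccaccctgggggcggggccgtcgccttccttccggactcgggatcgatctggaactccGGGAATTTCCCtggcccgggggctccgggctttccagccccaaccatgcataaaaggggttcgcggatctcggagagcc
CXCL2, chr4:74099196-74099445, minus strand: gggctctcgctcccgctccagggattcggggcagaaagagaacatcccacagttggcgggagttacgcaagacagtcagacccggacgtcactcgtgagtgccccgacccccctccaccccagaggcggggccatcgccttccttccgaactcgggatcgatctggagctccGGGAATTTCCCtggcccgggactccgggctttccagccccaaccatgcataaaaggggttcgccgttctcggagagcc
IL1B, chr2:112836780-112837029, minus strand: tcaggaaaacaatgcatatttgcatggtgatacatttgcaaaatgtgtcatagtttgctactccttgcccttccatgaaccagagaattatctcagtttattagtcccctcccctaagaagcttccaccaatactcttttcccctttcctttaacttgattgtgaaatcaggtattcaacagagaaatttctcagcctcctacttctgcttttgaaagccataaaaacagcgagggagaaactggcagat

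RefSeq windows that reach from 250 bases before to 50 bases after the start were matched for 8 of the 9 genes, all except CCL2. The full NF-kB motif was found in 6 of these 8 windows (IL6, CXCL1, CXCL2, CCL20, NFKBIA and TNFAIP3), against 5.91% of 35116 promoter windows of the same length. In IL6 the match GGGATTTTCC lay at bases -73 to -64 from the start. CXCL8 held GGAATTTCC at bases -91 to -83. That core was found in 4 of the 8 windows, against 0.461% of all windows, and in CXCL1, CXCL2 and NFKBIA it lies inside the full motif. It was added after the CXCL8 window had been seen, and its other matches repeat full-motif matches. Its count therefore adds no support to that of the full motif. CXCL8 alone of the 8 also held the AP-1 motif TGANTCA, at bases -137 to -131, which 7.71% of all windows hold. The TATA motif TATAAA was found in CXCL8, CCL20 and NFKBIA, against 11.5% of all windows. CXCL1 and CXCL2 are paralogs on chromosome 4. Their 250 upstream bases were identical in 67.9% of the aligned columns, with a shared run of 42 bases. CXCL1 and CXCL8 were identical in 41.3%. A match is a description of the letters and does not show that a factor binds there, and no match says only that these letters are not in the window.

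After TARDBP knockdown the members moved in different directions. The 9 probes of CXCL8, IL6, CXCL1, CXCL2, CCL2, IL1B, NFKBIA and TNFAIP3 were above the estimated background level on all 6 arrays and were tested, and CCL20 was above it on none. Of the 9 probes tested, IL6 and CCL2 were higher and IL1B was lower in siTARDBP, with a limma adjusted p under 0.05, and 6 had no call. In all, 3 of 9 tested member probes (33.3%) passed, where 11.2% of all 15201 tested probes did, 5.84% as higher and 5.32% as lower. With so few members, 1 call more or less moves their share by more than 10 percentage points. The calls of IL6 and IL1B depended on single arrays and on the processing. Under scaling by the median of all probes, IL1B was the 1 member that passed, and of all called probes 27.8% were higher, against 52.4% in the reported fit. All 9 tested members had the same standard error there, 0.15, so their calls in that fit depended only on the size of the difference. The median log2 difference of the 9 tested members was -0.08, against -0.0039 over all tested probes.

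**Figure D1:**
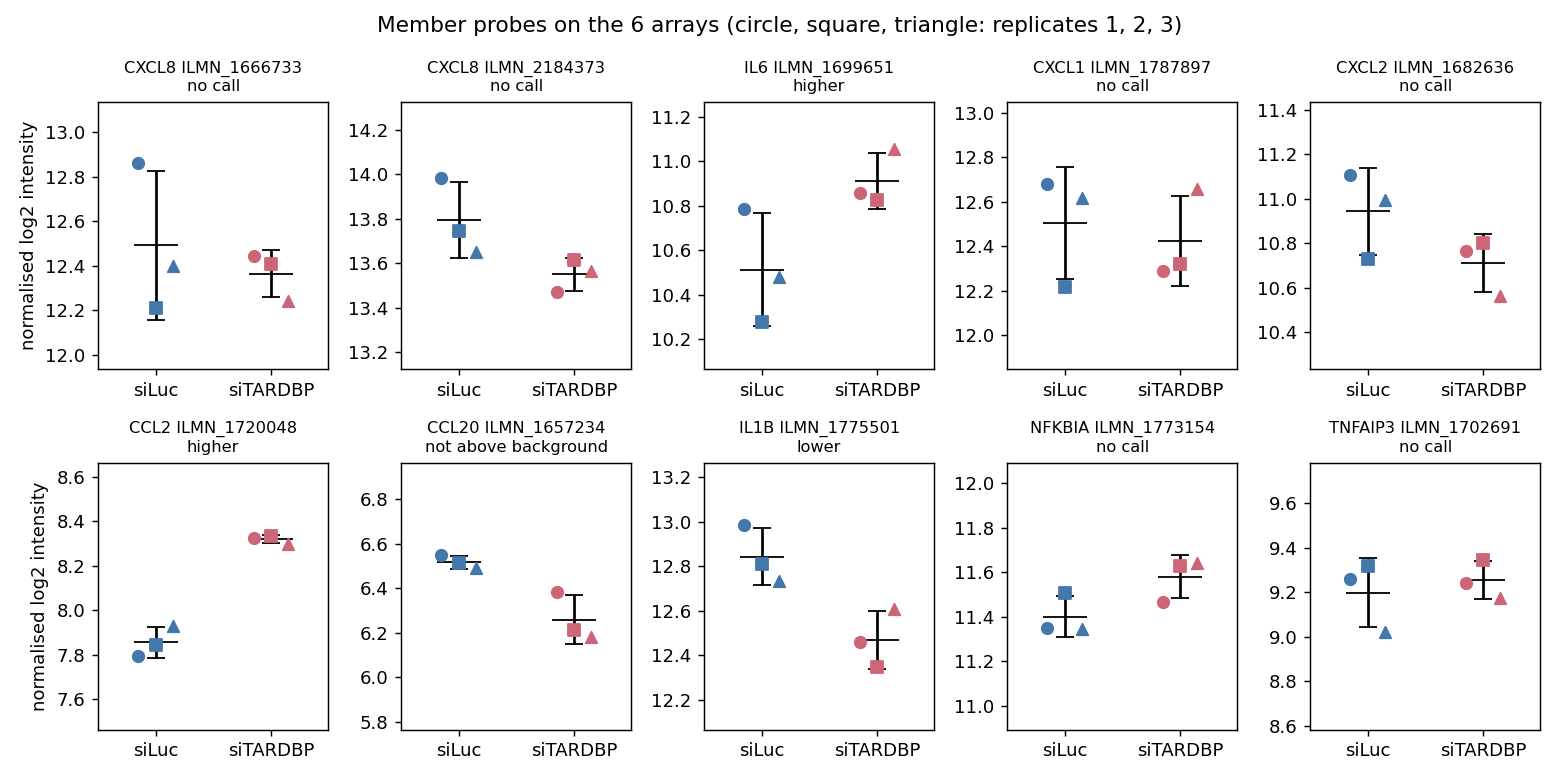
Normalised log2 intensity (y axis, each panel with its own range of equal height) of the 10 member probes on the 3 siLuc and 3 siTARDBP arrays, with the mean and SD of each group as horizontal line and bar. IL6 and CCL2 lie higher and IL1B lower on all 3 siTARDBP arrays than on any siLuc array, while CXCL1, CXCL2, NFKBIA, TNFAIP3 and 1 CXCL8 probe overlap between groups.

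The knockdown was visible in the targeted gene. The single TARDBP probe had raw intensities of 265, 214 and 203 in siLuc and 136, 84.0 and 96.5 in siTARDBP. The groups did not overlap, and TARDBP fell by 0.98 on the log2 scale (standard error 0.11, limma adjusted p = 1.5e-05). The TARDBP probe was above background on 5 of the 6 arrays. It fell below it on siTARDBP replicate 3, at 96.5 against a level of 118. On siTARDBP replicate 2 it was only just above, at 84.0 against 82.1. Over the alternative settings its log2 difference ranged from -1.25, with an offset of 16, to -0.91.

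The arrays fell into 2 classes of background, and each class held both groups. The background mode lay at 59.1 and 59.5 intensity units on the replicates numbered 2 and between 70.9 and 75.9 on the other 4 arrays. Of the cell type markers, the leukocyte genes PTPRC, CD3E, LYZ and TYROBP had no probe above background on any array, and neither did any of 6 endothelial markers. Of 8 hepatocyte markers only SERPINA1 and ALB were tested, and APOA1, APOB, TTR and TF were at background on every array. Of 7 leukocyte genes only CD14 and CD68 had a tested probe, and the summed raw intensity of the list was 5381 to 6433 in siLuc and 3688 to 4688 in siTARDBP, mostly from CD68, whose 3 probes disagreed in direction (log2 differences of -0.67, -0.0012 and 0.52). That sum moved with the groups while the defining leukocyte markers stayed at background. Of 7 mesenchymal markers VIM, SPARC, CDH2 and THY1 were above background on all 6 arrays, while FN1 was at background on every array and COL1A1 and COL1A2 were above it on too few arrays to be tested. Of 5 epithelial markers KRT8, KRT18, KRT19 and EPCAM were tested and CDH1 was at background on every array. In bulk RNA, fewer cells that make a transcript and less transcript per cell cannot be told apart.

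The cytokines IL6 and IL1B moved in opposite directions. IL6, read by ILMN_1699651, encodes interleukin-6, which signals through its receptor and the shared chain IL6ST to drive the acute-phase response in liver. Its normalised log2 levels were 10.78, 10.28 and 10.48 in siLuc and 10.86, 10.82 and 11.06 in siTARDBP. All 3 siTARDBP arrays lay above all 3 siLuc arrays, but the gap between the closest arrays was small, and siLuc replicate 1 stood near the siTARDBP arrays. IL6 rose by a log2 difference of 0.40 (standard error 0.12, 95% confidence interval 0.15 to 0.65, 1.32-fold, limma adjusted p = 0.040). The raw IL6 intensities were 2066, 1147 and 1531 in siLuc and 2049, 1509 and 1851 in siTARDBP, and these overlapped between groups before normalisation.

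The IL6 call rested on single arrays and on the processing. Its log2 difference was 0.28 without siLuc replicate 2 (adjusted p = 0.21), 0.33 without siTARDBP replicate 3 (adjusted p = 0.18), 0.38 without siLuc replicate 3 (adjusted p = 0.10) and 0.43 without siTARDBP replicate 1 (adjusted p = 0.066), each from limma. IL6 passed in 9 of 20 alternative settings, over which its limma adjusted p ranged from 0.0081 to 0.37. The difference was 0.55 between the 2 arrays of low background and 0.32 among the 4 others.

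IL1B, read by ILMN_1775501, encodes interleukin-1 beta, which is made as an inactive precursor and cleaved by caspases before release. Its normalised log2 levels were 12.98, 12.81 and 12.73 in siLuc and 12.46, 12.35 and 12.61 in siTARDBP. All siTARDBP arrays lay below all siLuc arrays, also in raw intensity, whose mean was 7725 (SD 1156, n = 3) in siLuc and 5426 (SD 832, n = 3) in siTARDBP. IL1B fell by 0.37 on the log2 scale (standard error 0.10, 95% confidence interval -0.59 to -0.16, 1.29-fold lower, limma adjusted p = 0.026). The limma adjusted p was 0.11 without siLuc replicate 1 (log2 difference -0.30), 0.073 without siLuc replicate 2 (-0.39), 0.068 without siTARDBP replicate 1 (-0.37) and 0.087 without siTARDBP replicate 2 (-0.31). IL1B passed in 13 of 20 alternatives, over which its limma adjusted p ranged from 0.013 to 0.17. With an offset of 16 its limma adjusted p was 0.052. Its difference was -0.46 between the low-background arrays and -0.33 among the 4 others. IL1B is also made by leukocytes. The summed intensity of the leukocyte list was lower in siTARDBP, mostly through 1 CD68 probe, while another CD68 probe was higher. PTPRC, CD3E, LYZ and TYROBP were at background on all arrays. Whether that sum has any link to the IL1B level was not tested.

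The contrast between both cytokines was read within each array on the normalised values. A scaling common to both probes cancels there, while effects of background or normalisation that depend on intensity need not. IL6 minus IL1B on the log2 scale was -2.20, -2.53 and -2.26 in siLuc and -1.60, -1.52 and -1.55 in siTARDBP. The difference between these probes thus shifted by 0.77, which restates the log2 differences of 0.40 for IL6 and -0.37 for IL1B. CCL2 minus IL1B shifted by 0.84 and IL6 minus the brighter CXCL8 probe by 0.64. The pairs join members whose groups already lay apart in opposite directions, so their differences could not overlap either, and the shifts are a description with no test.

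CCL2 was the member with the smallest adjusted p. It was read by ILMN_1720048 and encodes a chemokine that draws monocytes through the receptor CCR2. Its raw intensities were 235, 198 and 244 in siLuc and 359.5, 257 and 270.2 in siTARDBP, between 1.90 and 3.21 times the background level of the array. The dimmest siTARDBP array was brighter than the brightest siLuc array. On the normalised log2 scale the levels were 7.79, 7.84 and 7.93 against 8.32, 8.33 and 8.30. The 3 siTARDBP arrays differed little from each other. CCL2 rose by a log2 difference of 0.46 (standard error 0.09, 95% confidence interval 0.27 to 0.65, 1.38-fold, limma adjusted p = 0.0031). Its adjusted p stayed under 0.05 without any 1 of the 6 arrays, with a log2 difference between 0.43 and 0.50. The CCL2 call was lost in 1 of 20 alternatives, scaling by the median of all probes, where its log2 difference was 0.38 (limma adjusted p = 0.098). Its standard error there was 0.15, the same as for every other tested member, against 0.09 in the reported fit. Over all alternatives its limma adjusted p ranged from 0.0021 to 0.098. The difference was 0.49 between the low-background arrays and 0.45 among the 4 others.

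**Figure D2:**
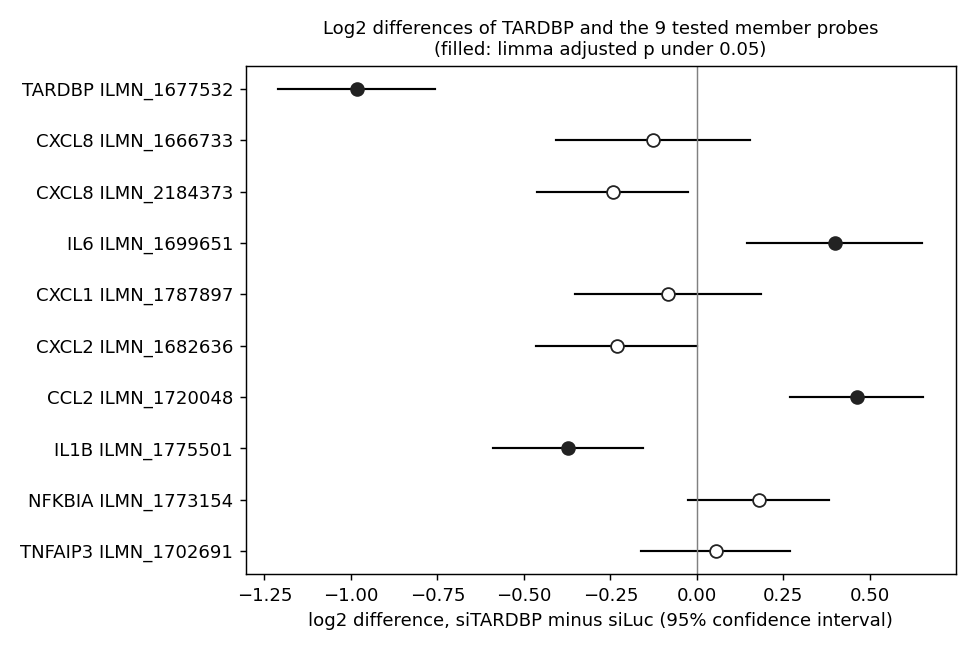
Log2 difference of siTARDBP minus siLuc (x axis) with its 95% confidence interval for TARDBP and the 9 tested member probes, filled where limma's adjusted p was under 0.05. TARDBP lies at -0.98, CCL2 at 0.46, IL6 at 0.40 and IL1B at -0.37, and the intervals of CXCL1, CXCL2, NFKBIA, TNFAIP3 and the dimmer CXCL8 probe include 0.

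The neutrophil-attracting chemokines CXCL8, CXCL1 and CXCL2, which act through the receptors CXCR1 and CXCR2, had no call. The CXCL8 probe ILMN_2184373 had raw intensities of 16336, 12810.35 and 14615 in siLuc and 12226, 11604 and 10833 in siTARDBP. All siTARDBP arrays lay below all siLuc arrays. The log2 difference was -0.24 (standard error 0.10, 95% confidence interval -0.46 to -0.02, limma adjusted p = 0.15). The other CXCL8 probe, ILMN_1666733, had raw intensities of 8230, 4396 and 6074 in siLuc and 6101, 4707 and 4222 in siTARDBP. Here siLuc replicate 2 lay below 2 of the siTARDBP arrays, and the groups overlapped. The log2 difference of this probe was -0.13 (standard error 0.13, 95% confidence interval -0.41 to 0.16, limma adjusted p = 0.60), and without siLuc replicate 1 it was 0.062. Over the 6 arrays the normalised levels of both CXCL8 probes correlated by r = 0.66, as a description of 1 RNA sample read by 2 probes.

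CXCL1, read by ILMN_1787897, had normalised log2 levels of 12.68, 12.22 and 12.62 in siLuc and 12.29, 12.32 and 12.66 in siTARDBP. The groups overlapped over most of their range. The log2 difference was -0.08 (95% confidence interval -0.35 to 0.19, limma adjusted p = 0.74) and was 0.0085 without siLuc replicate 1. CXCL2, read by ILMN_1682636, had levels of 11.11, 10.73 and 10.99 in siLuc and 10.77, 10.80 and 10.57 in siTARDBP. Only siLuc replicate 2 lay within the siTARDBP range. Its log2 difference was -0.23 (95% confidence interval -0.46 to 0.0015, limma adjusted p = 0.20). Between the low-background arrays the log2 difference was 0.20 for CXCL8 ILMN_1666733, 0.10 for CXCL1 and 0.074 for CXCL2. Among the 4 others it was -0.29, -0.18 and -0.38, in that order, so the sign of these 3 probes differed between the classes. CXCL8 ILMN_2184373 had -0.13 and -0.30. The interval of CXCL2 reaches to a fall of the size seen in the members that passed. CXCL1 and CXCL2 are close paralogs, the probe sequences were not used here, and whether either probe also reads the other transcript was not tested.

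CCL20, read by ILMN_1657234, a chemokine for cells with the receptor CCR6, was not above background on any array. Its raw intensities were 85.1, 66.4 and 84.0 in siLuc and 74.1, 54.6 and 60.7 in siTARDBP, between 0.514 and 0.813 times the background level. No fold is given for it.

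The inhibitors of NF-kB had no call either. NFKBIA, read by ILMN_1773154, encodes IkB alpha, the inhibitor that NF-kB itself restores. Its normalised log2 levels were 11.35, 11.51 and 11.34 in siLuc and 11.47, 11.63 and 11.64 in siTARDBP. The siTARDBP levels lay toward the upper end, with siLuc replicate 2 above siTARDBP replicate 1. The log2 difference was 0.18 (standard error 0.10, 95% confidence interval -0.03 to 0.38, limma adjusted p = 0.26). TNFAIP3, read by ILMN_1702691, encodes a ubiquitin-editing enzyme that shuts off signalling upstream of NF-kB. Its levels were 9.26, 9.32 and 9.02 in siLuc and 9.24, 9.34 and 9.17 in siTARDBP, with both groups over nearly the same range. The log2 difference was 0.05 (95% confidence interval -0.16 to 0.27, limma adjusted p = 0.79), and its sign turned to -0.058 under scaling by the median of all probes and to -0.034 without siLuc replicate 3.

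**Figure D3:**
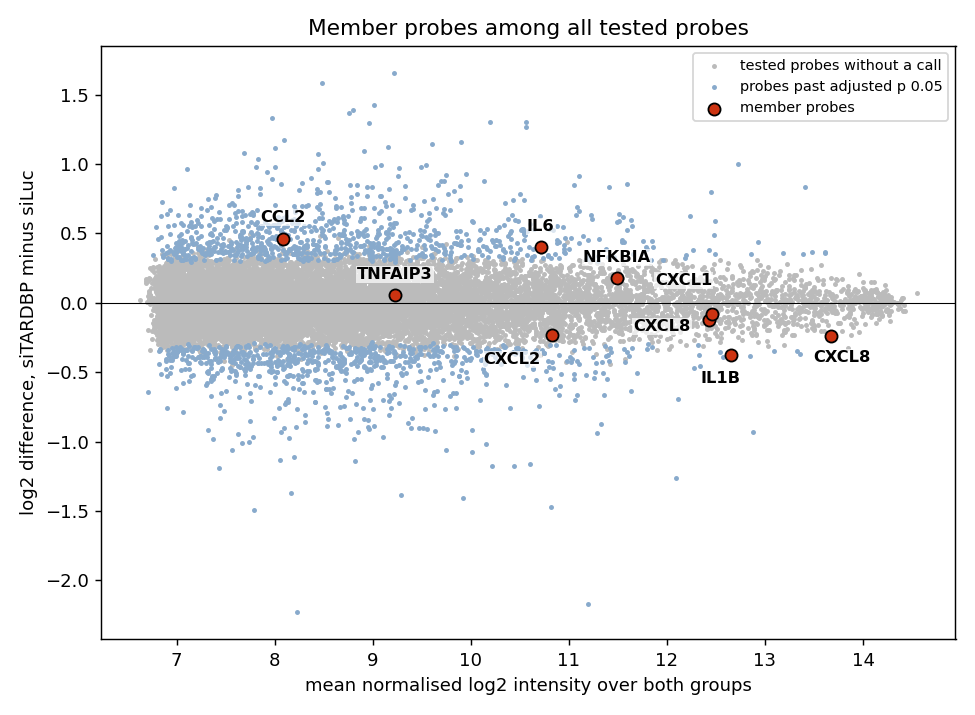
Log2 difference of siTARDBP minus siLuc (y axis) against the mean normalised log2 intensity (x axis) for the 15201 tested probes, blue where limma's adjusted p was under 0.05, with the 9 tested member probes in red. CCL2, IL6 and IL1B lie in the band of called probes, and the other 6 lie among probes without a call.

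The groups did not overlap for 4 of the 9 tested member probes, 2 of them higher in siTARDBP (IL6 and CCL2) and 2 lower (IL1B and CXCL8 ILMN_2184373). Of all tested probes, 29.4% had groups apart in this way, 14.3% higher and 15.2% lower. Members differed in how much the replicates of a group spread. The SD within groups was 0.25 on the log2 scale for CXCL8 ILMN_1666733, larger than or equal to that of 97.4% of tested probes. It was 0.23 for CXCL1 (95.5%) and 0.20 for IL6 (91.2%), against a median of 0.12 over all tested probes. CCL2 had an SD of 0.050, at the low end of the range (4.8%). Of the siLuc arrays, replicate 1 held the highest normalised level for 6 of the 9 tested member probes, both CXCL8 probes, IL6, CXCL1, CXCL2 and IL1B. Of the siTARDBP arrays, replicates 2 and 3 were each highest for 4 and replicate 1 for 1. The same share over all tested probes was not computed, so whether this order is particular to the members was not tested.

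Over the 6 arrays, the mean of both CXCL8 probes was followed among the members most closely by CXCL2 (r = 0.83) and IL1B (r = 0.67), while IL6 had r = -0.015 and CCL2 r = -0.62. Over all other tested probes with 1 gene symbol, the 5 with the highest r to CXCL8 were those of FHIP2A, PSIP1, OSTM1, SLC67A1 and KDM6A, with r between 0.974 and 0.982. None of these 5 passed the test between groups. The points are 6 arrays in 2 groups, and the highest r among so many probes is high by selection.

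The genes around the members were read from 7 lists of NF-kB subunits, regulators, receptors and targets. Beside the members, 61 of 95 listed genes had a tested probe, and 9 were higher and 5 lower in siTARDBP. Under scaling by the median of all probes, which moved the median log2 difference of all tested probes from -0.0039 to -0.087, 3 were higher and 7 lower. By probe, 15 of 84 (17.9%) passed, against 11.2% of all tested probes. The lists were drawn up with earlier results of these data known. The number of genes that passed ranged from 5 to 15 when 1 array was left out: 5 without siLuc replicate 1, 8 without siLuc replicate 2, 7 without siLuc replicate 3, 7 without siTARDBP replicate 1, 15 without siTARDBP replicate 2 and 6 without siTARDBP replicate 3. All lower calls were lost without siLuc replicate 1 (5 higher, 0 lower) and without siTARDBP replicate 3 (6 higher, 0 lower).

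**Figure D4:**
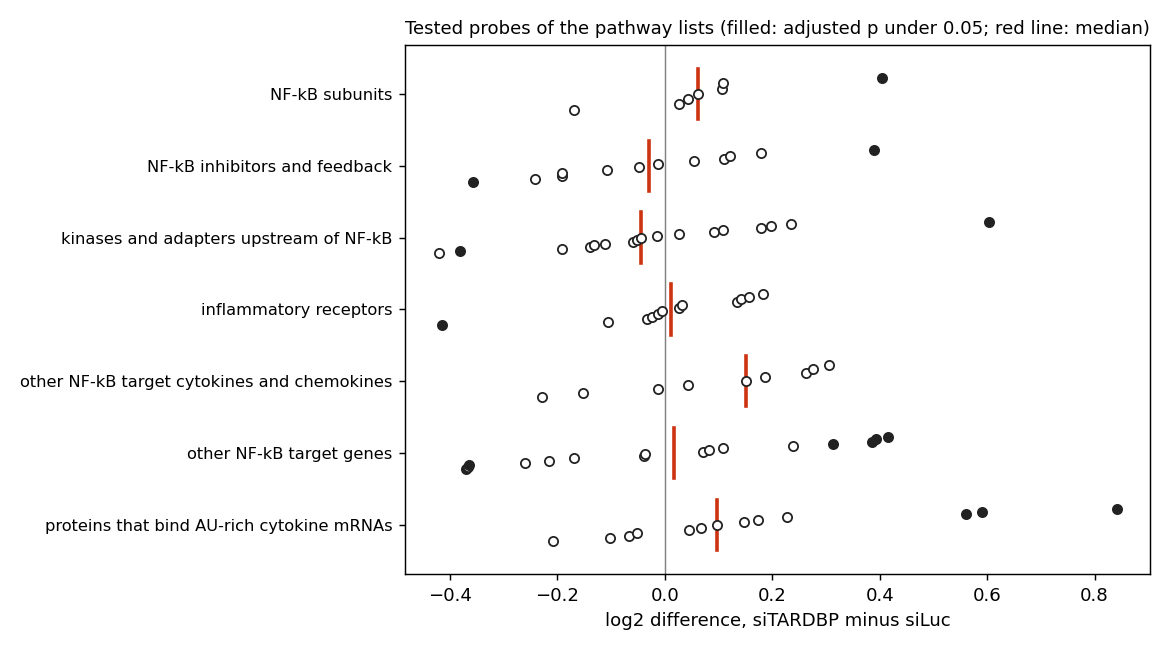
Log2 difference of siTARDBP minus siLuc (x axis) for every tested probe of the 7 lists (rows), filled where limma's adjusted p was under 0.05, with the median of each list as a red line. The list medians lie between -0.04 and 0.15, and the largest difference, 0.84, is that of a TIAL1 probe.

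Of the 5 NF-kB subunits, which pair up to form the transcription factor, RELA rose and NFKB1, NFKB2, RELB and REL had no call. RELA had raw intensities of 228, 216 and 209 in siLuc and 329, 219.9 and 274 in siTARDBP. On the normalised scale its siTARDBP arrays all lay above the siLuc arrays. Its log2 difference was 0.40 (standard error 0.10, limma adjusted p = 0.014). The limma adjusted p of RELA was 0.056 without siLuc replicate 1, 0.058 without siLuc replicate 3 and 0.079 without siTARDBP replicate 3. The 6 tested probes of the other subunits had log2 differences between -0.17 (NFKB1) and 0.11 (NFKB2).

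Among inhibitors and feedback regulators, 10 of 14 genes were tested, NFKBIA and TNFAIP3 among them, and BIRC2 was higher and TNIP1 lower. BIRC2, a ubiquitin ligase of tumour necrosis factor signalling, had a log2 difference of 0.39 (limma adjusted p = 0.046) at 1 probe, and its other tested probe had 0.11 without a call. The BIRC2 value leaned on siTARDBP replicate 1, with a raw intensity of 930.3 against 459 and 524 in the other siTARDBP samples. Without that array its log2 difference was 0.23 (limma adjusted p = 0.20). It also lost its call without each siLuc array and without siTARDBP replicate 3, at limma adjusted p between 0.070 and 0.12. TNIP1, a partner of TNFAIP3, fell by 0.36 (limma adjusted p = 0.030). The TNIP1 call was kept only without siTARDBP replicate 1, and without each of the other 5 arrays its limma adjusted p lay between 0.058 and 0.12.

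Of the kinases and adapters upstream, 12 of 15 genes were tested, TICAM1 was higher and IRAK1 lower. TICAM1, an adapter of the receptor TLR3, had a mean raw intensity of 131 (SD 19.5, n = 3) in siLuc against 196 (SD 38.0, n = 3) in siTARDBP at 1 probe. There it rose by 0.60 on the log2 scale (limma adjusted p = 0.00037). This probe was dim, at 148, 110 and 134 in siLuc against background levels of 116, 81.7 and 128. The other tested TICAM1 probe was brighter, at 297 in siLuc and 269 in siTARDBP on average, and had -0.04 without a call. TLR3 itself was not above background on any array. IRAK1, a kinase of interleukin-1 signalling, fell by 0.38 (limma adjusted p = 0.041). The IRAK1 call was kept only without siLuc replicate 2, and without each of the other 5 arrays its adjusted p lay between 0.087 and 0.15.

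Of the receptors of the members' own products, some were measured and others were at background. CXCR1, CXCR2, CCR2 and IL6R were at background on every array. CCR6 had 1 bright probe, at 16807 in siLuc and 16523 in siTARDBP on average, and 2 probes at background, and its probes thus disagree. IL1R1, the receptor of IL1B, was above background on 4 arrays and had a log2 difference of 0.16 (limma adjusted p = 0.48). IL6ST, the signalling chain of the interleukin-6 receptor, was measured by 2 probes with log2 differences of 0.03 and -0.02 and no call. Of 9 tested receptor genes, only IL1RAP, the accessory chain of the interleukin-1 receptor, passed. One IL1RAP probe fell by 0.41 (limma adjusted p = 0.021), with an adjusted p of 0.11 without siLuc replicate 1 and of 0.11 without siTARDBP replicate 3, and its other tested probe had -0.01 without a call.

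Of 18 other cytokine and chemokine genes that NF-kB drives, 6 were tested and 0 passed an adjusted p of 0.05 in limma. At an unadjusted p under 0.05, 3 of the 9 tested probes were higher (IL1A, LIF and IL32) and 0 lower, in all 33.3% where 25.4% of all tested probes reached that level. TNF, CXCL10, CCL4, CCL7 and IL11 were among those at background on every array. The median log2 difference of the 9 tested probes was 0.15, and IL1A, which shares its receptor with IL1B, had 0.30 (limma adjusted p = 0.065) where IL1B had -0.37.

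Of 20 other NF-kB target genes, 13 were tested, 4 were higher and 2 lower. The higher genes were TNFAIP2 with a log2 difference of 0.41, the inhibitors of cell death XIAP with 0.39 and BCL2L1 with 0.38, and PTX3, a soluble pattern-recognition protein, with 0.31. The limma adjusted p was 0.019, 0.013, 0.012 and 0.047, in that order. A second BCL2L1 probe had -0.04 without a call. The XIAP probe was dim, at 137, 108 and 124 in siLuc against background levels of 116, 81.7 and 128. It was above background on 5 arrays. PLAU, the urokinase gene, fell by 0.37 (limma adjusted p = 0.022). Its raw intensity averaged 12443 (SD 543, n = 3) in siLuc and 8853 (SD 645, n = 3) in siTARDBP. ICAM1, an adhesion molecule for leukocytes, fell by 0.36 (limma adjusted p = 0.024). TNFAIP2 kept its call in 3, XIAP in 4, BCL2L1 in 5, PTX3 in 1, PLAU in 2 and ICAM1 in 1 of the 6 fits without 1 array. The highest limma adjusted p was 0.085 for TNFAIP2 (without siLuc replicate 3), 0.066 for XIAP (without siTARDBP replicate 1), 0.056 for BCL2L1 (without siLuc replicate 2), 0.21 for PTX3 (without siTARDBP replicate 3), 0.11 for PLAU (without siLuc replicate 2) and 0.13 for ICAM1 (without siTARDBP replicate 3).

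The proteins that bind AU-rich cytokine mRNAs held the largest difference of the lists. Of 8 tested genes, TIAL1 and ZC3H12A were higher in limma, and 6 had no call. TIAL1, an RNA-binding protein that represses translation, had raw intensities of 837, 677 and 704 in siLuc and 1555, 952 and 1116 in siTARDBP at its probe ILMN_1717745. The groups were well apart, and TIAL1 rose by 0.84 on the log2 scale (standard error 0.10, limma adjusted p = 2.6e-05). A second TIAL1 probe rose by 0.59 (limma adjusted p = 0.0018), and another had 0.15 without a call. ZC3H12A, a ribonuclease that degrades IL6 and other cytokine mRNAs, had raw intensities of 256, 203 and 175 in siLuc and 351, 237 and 298 in siTARDBP. It rose by 0.56 (standard error 0.11, limma adjusted p = 0.0040). The calls of TIAL1 ILMN_1717745, TICAM1 and ZC3H12A were kept in all 20 alternatives. ZFP36, ZFP36L1, ZFP36L2, KHSRP, HNRNPD and TIA1 had log2 differences between -0.21 and 0.23 and no call.

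**Figure D5:**
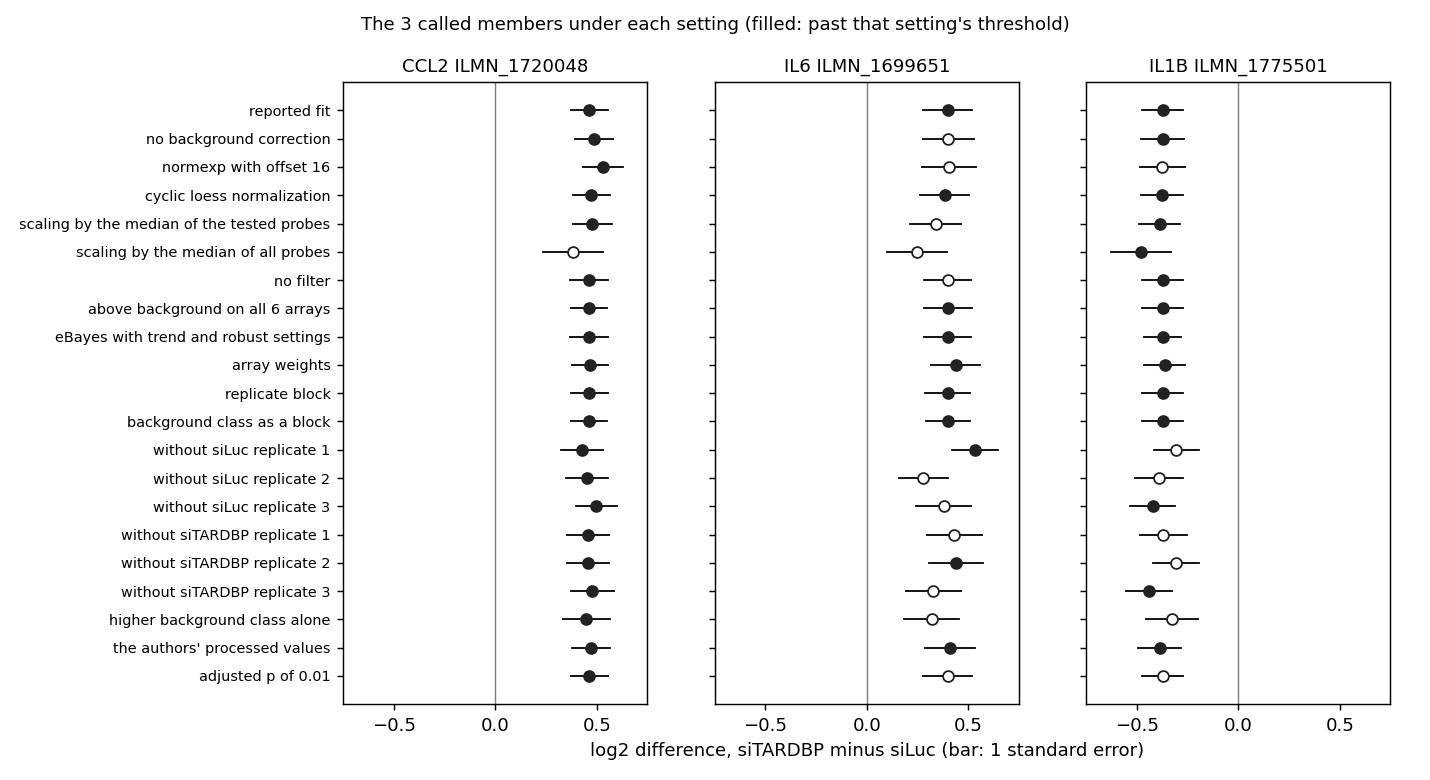
Log2 difference of siTARDBP minus siLuc (x axis, bars show 1 standard error) of CCL2, IL6 and IL1B in the reported fit and under 20 alternatives (rows), filled where the probe passed that setting's adjusted p threshold. The sign of each gene was the same in every row, CCL2 passed in 19 of 20, IL1B in 13 and IL6 in 9.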

How the data were processed

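The 6 columns of the table matched the sample titles, which give groups and replicate numbers. Its values are linear probe intensity without normalization, deposited by the authors, and the submitters' processing notes name BeadStudio. A second table holds log2 values that the authors deposited. Its columns share 1 distribution and rank the probes as the intensity columns do, so it was used as an alternative only. How its values were made is not given in the sources used here.

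Background was corrected by normexp with an offset of 50, arrays were quantile-normalised, and the groups were fitted in limma (lmFit, eBayes) without a block (R 4.3.3, limma 3.58.1). The offset compresses fold changes, chiefly of dim probes. The background level of an array was estimated on the log2 scale by mirroring the values below the mode of the dim peak and taking the 95% level. The 15201 probes (32.2%) above it on at least 3 arrays were tested and p-values adjusted over all of them by Benjamini-Hochberg, with a threshold of 0.05. The filter is an estimate, since no detection p-values were used here. Genes were named from the platform annotation where it gave 1 symbol (30113 probes), with symbols updated by gene ID through RefSeq, while 8 probes had several symbols and 17110 are unnamed here. The script was tested on simulated arrays, and the number of arrays limits the precision.

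All members and the TARDBP probe are described. Of the listed genes, those named were called with groups apart, up to the 12 with the largest log2 difference, plus all NF-kB subunits. TNIP1 and PTX3 passed as well and are named as the remaining calls, and genes named without a call were chosen after their values were seen. The members and lists were chosen with earlier results of these data known.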

Additional observations from a re-analysis of the deposited data

How the results depend on the processing

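All 3 called members kept their direction in the 20 alternatives, which changed the background correction, normalisation, filter, eBayes settings, array weights, block, threshold, table and arrays. The number of member probes past the threshold was 3 and fell to 1 with an offset of 16, with scaling by the median of all probes, with an adjusted p of 0.01 and in the 4 arrays of higher background, and to between 1 and 2 without 1 array. The whole table gave 1696 probes, 888 higher and 808 lower (52.4% higher). It gave 1016 under scaling by the median of all probes (27.8% higher), 764 at an adjusted p of 0.01, 835 in the 4 arrays of higher background and 960 to 1785 without 1 array, with the lowest counts without siLuc replicate 2 (960) and siTARDBP replicate 3 (965). Pathway genes past the threshold numbered 14, 3 at an adjusted p of 0.01, 9 in the 4 arrays of higher background and 5 to 15 without 1 array. Under scaling by the median of all probes 10 passed, 3 higher and 7 lower. That scaling moved the median log2 difference of the tested probes to -0.09, and its fit gave all tested members the same standard error, 0.15. A stricter threshold lowers a count by definition, and for the other shifts the cause was not tested. Counts without 1 array mix the smaller number of arrays with the choice of array left out. Signs turned for members without a call, between the background classes for CXCL8 ILMN_1666733, CXCL1 and CXCL2 (0.074 between the 2 low-background arrays). Without 1 array, the log2 difference of CXCL8 ILMN_1666733 ranged from -0.27 to 0.062 and that of CXCL1 from -0.22 to 0.0085, both positive without siLuc replicate 1, and that of TNFAIP3 from -0.034 to 0.11, negative without siLuc replicate 3. TNFAIP3 was at -0.058 under scaling by the median of all probes. Deviations from the group means correlated by 0.11, 0.10 and -0.0019 between arrays numbered 1, 2 and 3. Between arrays of different numbers the correlations lay between -0.16 and 0.064. Values this small do not settle whether the samples were paired. With the replicate block, 3 member probes, 16 pathway genes and 1740 probes in all passed, and the block changed no member's call. The authors' processed values gave 3 member probes, IL6 and CCL2 higher and IL1B lower. Of the 34 listed genes without a tested probe, BIRC3, TRAF2, IRAK4, RIPK1 and CSF2 had no probe named here. Signal over background limits the others and CCL20. Detection p-values and a negative-control background were not run for lack of those columns.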

Other observations

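Of the listed pathway genes beside the members, 21 had over 1 tested probe. For 16 of them no probe passed, and for 5 (TIAL1, TICAM1, IL1RAP, BIRC2 and BCL2L1) a probe without a call stood beside one that passed, a difference between probes that was not tested. CD68, a lysosomal protein fixed here as a leukocyte marker, was measured by 3 probes on all 6 arrays. Its probe ILMN_1714861 fell by 0.67 on the log2 scale (mean raw intensity 3463, SD 378, n = 3 in siLuc against 1938, SD 190, n = 3 in siTARDBP, limma adjusted p = 0.0012). Its probe ILMN_2267914 rose by 0.52 (mean raw intensity 162, SD 22.8, against 227, SD 55.5, limma adjusted p = 0.0026), and ILMN_2359907 had a log2 difference of -0.0012 without a call. CD68 was picked out after its values were seen, and the probes' positions in their transcripts were not used here.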
